A study of Oryza sativa with 13 samples.

Results

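The short arm of rice chromosome 3, taken here from position 1000001 to 17400000, held 12765 of the 302642 methylation peaks deposited for 7 libraries of the cultivar ZH-11 (Zhonghua11, a japonica rice). A peak belonged to the arm when its midpoint lay between these positions. Which genome build the positions refer to is not given in the sources used here. Peaks of the arm were selected on the excess of embryo over endosperm peaks in these same lists, so every difference between embryo and endosperm inside it is a description and was not tested. Gene density and gene positions on the arm were not analysed here.

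The libraries came from dissected seeds, with embryo collected 3, 6 and 9 days past pollination (DAP) and endosperm also at 2 DAP. Plants were grown in a phytotron, and DNA fragments carrying 5-methylcytosine were captured with an antibody and sequenced (MeDIP-seq). Each tissue and stage was 1 library, so 3 embryo and 4 endosperm libraries were set side by side and no stage had a replicate. The 6 samples of the indica cultivar 93-11 were not analysed here.

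The endosperm is the nutritive tissue that arises, beside the embryo, when the central cell of the female gametophyte is fertilised. In flowering plants, DNA glycosylases of the DEMETER family remove methylated cytosines in the central cell before fertilisation, and endosperm DNA is known to carry less methylation than embryo DNA at many transposons and genes. Plant methylation occurs in the CG, CHG and CHH contexts, where H is any base but G. An antibody against 5-methylcytosine does not tell these contexts apart, and a peak gives no methylation level per cytosine.

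Depth after filtering was 8062289 to 8423857 tags in embryo and 6833917 to 7465986 tags in endosperm, where a tag is 1 aligned read, so every embryo library was deeper than every endosperm library. The part of depth in the tissue differences was not tested. With a minimum of 4 tags per 1000000 filtered tags on every peak, the mean covered-length ratio of the arm was 1.54, as it was without this minimum. This limit was chosen after seeing the data and removed few peaks. It left 2291 of 2385 on the arm in embryo at 3 DAP and 1211 of 1222 in endosperm at 2 DAP. It cannot bring back peaks that a shallower library failed to call, so it does not show the part of depth. Endosperm at 2 DAP was the shallowest library and also had the fewest peaks on the arm.

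Peak coverage of the arm was near that of the rest of the genome in embryo and below it in endosperm. Embryo peaks covered 144, 151 and 156 kb per Mb of the arm at 3, 6 and 9 DAP, against 149.6, 148.6 and 153.7 kb per Mb of the rest of the 12 chromosomes. Endosperm peaks covered 99.6, 94.3, 97.2 and 100.3 kb per Mb of the arm at 2, 3, 6 and 9 DAP, against 125.02, 126.7, 128 and 132.6 kb per Mb of the rest. Embryo coverage of the arm thus lay on both sides of that of the rest, below it at 3 DAP and above it at 6 and 9 DAP. Endosperm coverage of the arm was below that of the rest at all 4 stages.

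**Figure D1:**
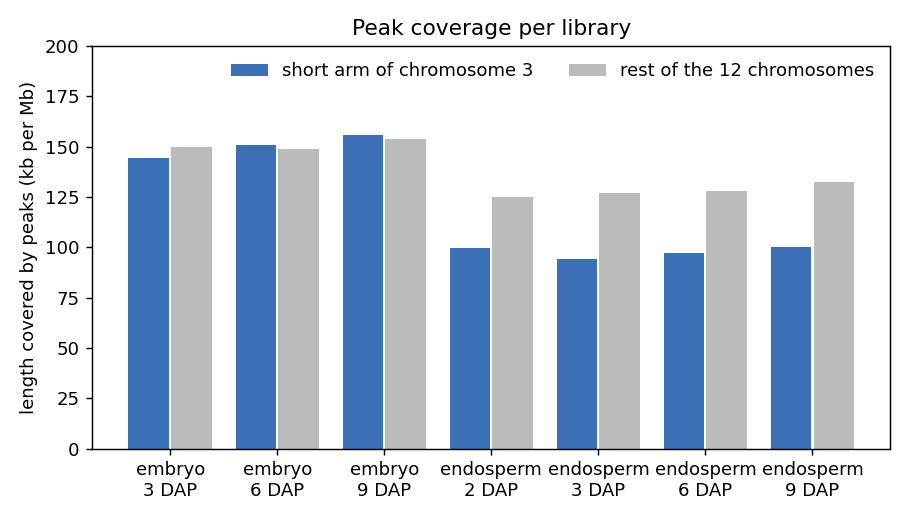
Length covered by peaks, in kb per Mb, in each of the 7 libraries, for the short arm of chromosome 3 (blue bars) and the rest of the 12 chromosomes (grey bars), with 1 library per pair of bars. In embryo the bars of a pair are within 6 kb per Mb of each other, while in endosperm the arm stands between 94.3 and 100.3 kb per Mb and the rest between 125.02 and 132.6.

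In number of peaks the arm was above the rest in embryo and below it in endosperm. Embryo had 145, 154 and 158 peaks per Mb of the arm at 3, 6 and 9 DAP, against 138, 142 and 147 per Mb of the rest. Endosperm had 74.5, 81.6, 82.3 and 81.6 per Mb of the arm at 2, 3, 6 and 9 DAP, against 88.9, 98.4, 99.4 and 97.4 per Mb of the rest. The arm held 2385, 2531 and 2599 embryo peaks at 3, 6 and 9 DAP, and 1222, 1339, 1350 and 1339 endosperm peaks at 2, 3, 6 and 9 DAP. All embryo libraries were above all endosperm libraries. Embryo had 1.78, 1.87 and 1.94 times as many peaks as endosperm at 3, 6 and 9 DAP, a mean ratio of 1.87 ± 0.0803 (SD, n = 3 stages). Over the rest of the 12 chromosomes the ratio was 1.45 ± 0.0597. The arm took 4.63% to 4.74% of the peaks of an embryo list and 3.66% to 3.71% of those of an endosperm list.

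In embryo, peaks of the arm summed to 2.36, 2.47 and 2.56 Mb at 3, 6 and 9 DAP, against 1.63, 1.55, 1.59 and 1.65 Mb of endosperm peaks at 2, 3, 6 and 9 DAP. Embryo was higher at each later stage, while endosperm was highest at 9 DAP and lowest at 3 DAP. The embryo to endosperm ratio was 1.53, 1.55 and 1.55 at 3, 6 and 9 DAP (mean 1.54 ± 0.0145, SD, n = 3 stages). What is called the long arm of the same chromosome here ran from 17400001 to 1 Mb before its last peak. Where the centromere lies was not checked, so this stretch can include sequence around it and short-arm sequence. The long arm so taken had a ratio of 1.26 ± 0.0147, and the other 11 chromosomes together had 1.16 ± 0.0118. The distances between these mean ratios exceeded their spread over stages, but the stages share no replicate and the arm was picked for its ratio. By whole chromosome, the mean ratio ran from 1.06 on chromosome 12 to 1.32 on chromosome 1, with 1.38 on chromosome 3. Single arms of other chromosomes were not compared here. With each list reduced to its 32986 highest-scoring peaks, the mean ratio was 1.18 on the arm and 0.853 over the rest of the 12 chromosomes.

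Between the tissues, tags followed the covered length. Among the endosperm libraries they did not, since 9 DAP had the largest covered length and the fewest tags per 1000000 filtered tags. Peaks of the arm held 26106, 27295 and 27956 tags per 1000000 filtered tags (RPM) in embryo at 3, 6 and 9 DAP, and 18882, 18732, 19534 and 18113 RPM in endosperm at 2, 3, 6 and 9 DAP. The groups did not overlap. The RPM ratio was 1.39, 1.397 and 1.54 at 3, 6 and 9 DAP, a mean of 1.44 ± 0.0854 (SD, n = 3 stages), while over the rest of the 12 chromosomes it was 1.04 ± 0.0448. Per kb of peak, the arm held 11.0, 11.0 and 10.9 RPM in embryo and 11.6, 12.1, 12.3 and 11.0 RPM in endosperm. Tag density inside embryo peaks lay at the low end of that in endosperm, so the excess of embryo tags went with more covered length.

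Peaks of the arm were somewhat shorter than elsewhere in the same libraries, and endosperm peaks were the longer ones. The median length was 833, 834 and 837 bp in embryo at 3, 6 and 9 DAP, against 894, 875 and 880 bp over the rest of the 12 chromosomes. In endosperm it was 1093.5, 911, 960 and 975 bp at 2, 3, 6 and 9 DAP, against 1111, 978, 997 and 1029 bp over the rest. Peaks of at least 3 kb made up 1.30%, 0.711% and 0.923% of embryo peaks on the arm at 3, 6 and 9 DAP, and 4.91%, 3.66%, 3.04% and 4.11% of endosperm peaks at 2, 3, 6 and 9 DAP. Over the rest of the 12 chromosomes these shares ran from 1.36% to 2.11% in embryo and from 5.29% to 6.49% in endosperm. Both tissues thus had fewer long peaks on the arm than elsewhere.

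The fold enrichment that the authors deposited with each peak, tags at the summit over local background, was slightly higher on the arm. Its median was 6.92, 6.96 and 6.84 on the arm in embryo at 3, 6 and 9 DAP, against 6.63, 6.61 and 6.44 over the rest. In endosperm at 2, 3, 6 and 9 DAP it was 6.85, 7.04, 7.11 and 6.29 on the arm, against 6.32, 6.60, 6.66 and 5.99 over the rest. The local background was taken from the same library over 10 kb, so a value is relative to how densely its surroundings were captured. The embryo to endosperm difference on the arm was not matched by a difference in this measure, whose ranges overlapped between the tissues.

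Along the arm, endosperm coverage varied more than embryo coverage, as it did outside the arm. The arm held 32 full windows of 500 kb and a last window of 400 kb. Mean embryo coverage of a full window ran from 52.7 to 98.9 kb with a median of 73.8 kb, a 1.88-fold span. Mean endosperm coverage ran from 19.3 to 90.5 kb with a median of 46.6 kb, a 4.69-fold span. Outside the arm, over 708 full windows, the medians were 76.9 kb in embryo and 61.2 kb in endosperm. The SD over stages within a window had a median of 3.82 kb in embryo and 3.20 kb in endosperm, against a median difference of 27.5 kb between the tissues.

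**Figure D2:**
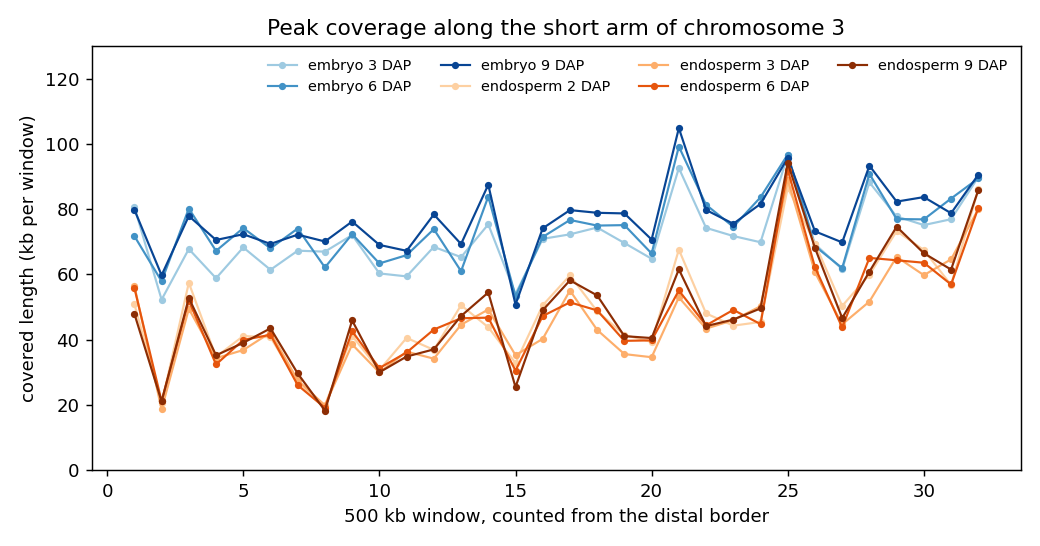
Covered length in kb for each of the 32 full windows of 500 kb, counted from the distal border, with 1 line per library (blue for embryo, orange to brown for endosperm). The blue lines stay at or above 50.8 kb throughout, while the endosperm lines start mostly below 60 kb and reach 80.0 to 94.2 kb in windows 25 and 32.

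All embryo libraries lay above all endosperm libraries in covered length in 31 of the 32 windows (96.9%), where the same held in 61.6% of the 740 full windows of the 12 chromosomes. No window of the arm had every endosperm library above every embryo library, a state found in 10.8% of all windows. The embryo to endosperm ratio was above 1 in all 32 windows at each of the 3 stages. Its mean over stages was above 1.5 in 21 windows and above 2 in 4. The median of these mean ratios was 1.61 on the arm, and 1.23 over the 707 windows outside it that had endosperm peaks at all 3 stages. With lists of equal length, every embryo library was above every endosperm library in 19 of the 32 windows (against 25.3% of all windows), the reverse held in 3 (against 46.4%), and the mean ratio was above 1 in 26.

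In RPM the separation was less complete. Every embryo library was above every endosperm library in 28 windows of the arm (87.5%), against 49.7% of all windows. The reverse held in 3 windows (9.38%), against 25.1% of all windows. Those 3 windows began at positions 13000001, 13500001 and 16500001. They were also the 3 with the lowest covered-length ratio.

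Split into 3 equal parts, the arm showed a gradient. In the distal part, up to position 6466667, coverage was 137 ± 6.29 kb per Mb in embryo (SD, n = 3 stages) and 72.4 ± 1.06 in endosperm (SD, n = 4 stages). In the middle part, from 6466668 to 11933333, coverage was 147 ± 6.59 kb per Mb in embryo and 89.9 ± 4.19 in endosperm. In the proximal part it was 167 ± 4.89 in embryo and 131 ± 3.62 in endosperm. The ratio at shared stages was 1.90 ± 0.0659 in the distal, 1.66 ± 0.0114 in the middle and 1.27 ± 0.0153 in the proximal part. Both tissues had more coverage towards the centromere, and the difference between the parts was larger in endosperm.

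Just inside the distal limit the ratio was lower than just outside it. The 500 kb inside had a mean ratio of 1.46, with 77.4 kb covered in embryo and 52.8 kb in endosperm on average, and the 500 kb outside had 1.94, with 44.1 kb in embryo and 23.3 kb in endosperm. At the proximal limit, the 500 kb inside had 1.15 and the 500 kb outside 1.04.

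**Figure D3:**
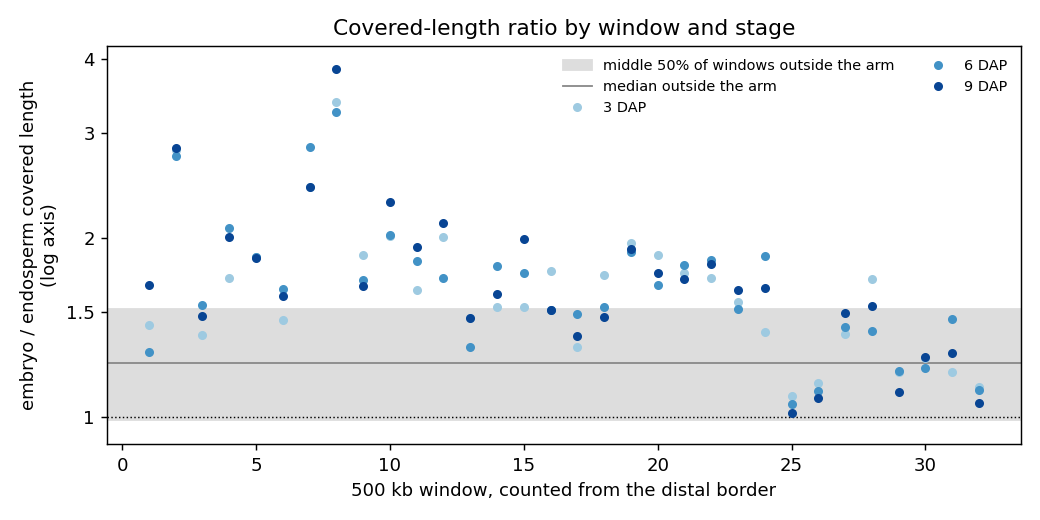
Embryo to endosperm ratio of covered length, on a log axis, in the 32 full windows counted from the distal border, with 1 point per stage (3, 6 and 9 DAP). The grey band is the middle 50% of windows outside the arm, from 0.987 to 1.52, and the line its median of 1.23; windows 2, 7 and 8 stand highest, at mean ratios of 2.79, 2.57 and 3.49.

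The highest ratio lay from 4500001 to 5000000. Embryo peaks covered 67.0, 62.1 and 70.1 kb of this window at 3, 6 and 9 DAP, and endosperm peaks covered 19.95, 19.8, 19.1 and 18.3 kb at 2, 3, 6 and 9 DAP. In each embryo library the value was below that library's median over the arm's windows, which was 69.7, 74.1 and 77.0 kb at 3, 6 and 9 DAP, and the endosperm mean was the lowest of any full window of the arm. Ratios were 3.38, 3.25 and 3.84 at 3, 6 and 9 DAP, and the mean of 3.49 was also the highest of all 500 kb windows of the 12 chromosomes. Of the 98 places in it that carried a peak, 49 (50%) had one in all embryo and no endosperm libraries, against 19.5% over the 12 chromosomes. The opposite kind numbered 0, and it made up only 1.73% of places over the 12 chromosomes.

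The window from 1500001 to 2000000 came next, with 52.3, 57.9 and 59.7 kb in embryo at 3, 6 and 9 DAP and 20.5, 18.6, 21.1 and 21.1 kb in endosperm at 2, 3, 6 and 9 DAP. Its mean ratio was 2.79. From 4000001 to 4500000, directly beside the highest window, embryo peaks covered 67.3, 74.1 and 72.2 kb and endosperm peaks 26.9, 27.6, 26.1 and 29.6 kb, a mean ratio of 2.57. These 3 windows were among the 10 highest ratios of the 12 chromosomes, and 7 windows of the arm were among the highest 50.

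The windows from 5500001 to 6000000 and from 6500001 to 7000000 completed the 5 highest, with mean ratios of 2.11 and 1.94. In the first, embryo peaks covered 60.3 to 69.0 kb and endosperm peaks 29.9 to 31.3 kb. In the second, embryo peaks covered 68.4 to 78.4 kb and endosperm peaks 34.2 to 43.1 kb. The tissues did not overlap in either window.

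At the other end of the order, the window from 13000001 to 13500000 was nearly as covered in endosperm as in embryo. Embryo peaks covered 96.5, 96.7 and 95.7 kb at 3, 6 and 9 DAP, and endosperm peaks 86.6, 89.0, 92.1 and 94.2 kb at 2, 3, 6 and 9 DAP. Endosperm coverage was higher at each later stage and embryo coverage was not, and the ratio was lower at each later stage, with 1.08, 1.05 and 1.02 at 3, 6 and 9 DAP. In RPM the mean ratio there was 0.814. This window also had the highest mean covered length over the 7 libraries of any full window on the arm, 93.0 kb.

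The windows from 16500001 to 17000000 and from 13500001 to 14000000 had mean ratios of 1.097 and 1.11. In the first, embryo peaks covered 89.4 to 90.5 kb and endosperm peaks 80.0 to 86.1 kb. In the second, embryo peaks covered 68.7 to 73.2 kb and endosperm peaks 60.6 to 69.5 kb, and it was the single window of the arm in which the tissues overlapped. The 3 lowest ratios depended on the lists: with lists of equal length they were 0.838 from 13000001, 0.713 from 16500001 and 0.768 from 13500001, and with peaks of a score of at least 100 the first was 0.950 and the second 0.941. High coverage did not always go with a low ratio. From 11000001 to 11500000, embryo peaks covered 92.6, 99.2 and 104.8 kb at 3, 6 and 9 DAP and endosperm peaks 67.6, 53.0, 55.1 and 61.6 kb at 2, 3, 6 and 9 DAP, a mean ratio of 1.75.

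To follow single places rather than totals, touching or overlapping peaks of the 7 lists were joined, which gave 3097 regions on the arm. Of these, 845 (27.3%) had a peak in all 3 embryo libraries and in no endosperm library and are called embryo-only. The opposite class, with a peak in all 4 endosperm libraries and in no embryo library, had 40 regions (1.29%) and is called endosperm-only. A peak in all 7 libraries was found in 714 regions (23.1%), called shared. Over the 12 chromosomes these classes made up 19.5%, 1.73% and 26.3% of 70344 regions. The long arm of chromosome 3, as taken here from 17400001, had 22.4% embryo-only, 2.09% endosperm-only and 26.0% shared regions. With lists of equal length the arm had 482 embryo-only (19.5%, against 12.8% of all regions) and 125 endosperm-only regions (5.06%, against 6.34%), with 520 shared (21.1%, against 21.9%). Endosperm-only regions numbered 66 without endosperm at 2 DAP and 65 without endosperm at 3 DAP, and shared regions numbered 403 at a score of at least 100 and 468 at a fold enrichment of at least 5.

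Embryo-only regions of the arm had a median length of 835 bp and covered 773 kb in all. Endosperm-only regions had a median of 1278 bp and covered 54.7 kb. Shared regions had a median of 1708 bp. Base by base, 701 kb of the arm were covered in all 3 embryo and no endosperm libraries, 81.4 kb in all 4 endosperm and no embryo libraries, and 729 kb in all 7. A missing peak means that no enrichment passed the authors' limit in that library, and it gives no tag number for that library.

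The gradient along the arm recurred in these classes. Embryo-only regions made up 34.8% of the 965 regions of the distal part, 27.8% of the 1042 of the middle part and 20.1% of the 1090 of the proximal part. Shared regions went the other way, with 19.2%, 22.5% and 27.1%. Endosperm-only regions numbered 9, 17 and 14 in the distal, middle and proximal part. Embryo-only regions outnumbered endosperm-only regions in all 32 full windows, by the least from 15000001 to 15500000 (10 against 2). Over the 12 chromosomes they also did so in total, with 13705 against 1220 regions. The share of such windows outside the arm was not counted.

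**Figure D4:**
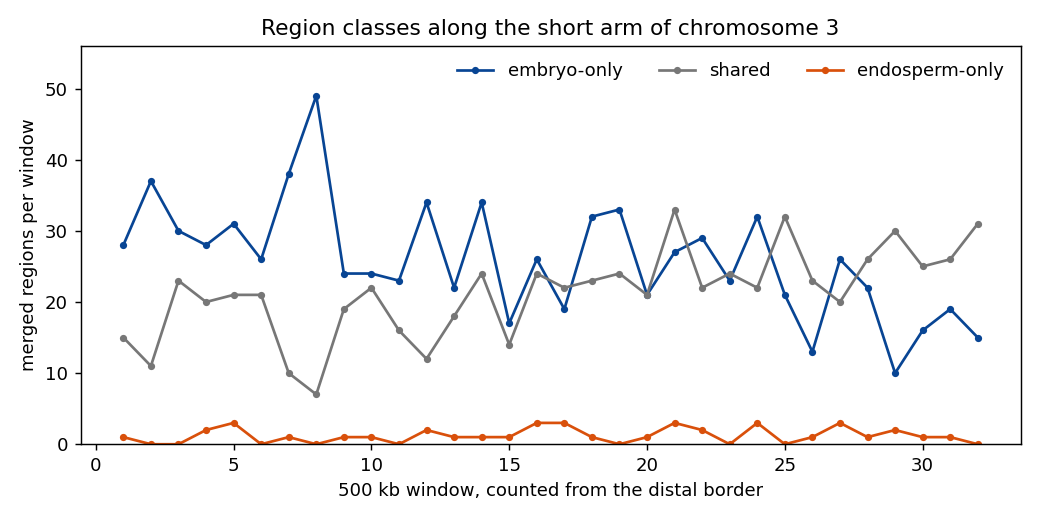
Number of merged regions of each class in the 32 full windows of the arm, counted from the distal border (blue embryo-only, grey shared, orange endosperm-only). Embryo-only regions peak at 49 in window 8, where shared regions are at their lowest, 7, and endosperm-only regions never exceed 3.

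Places that kept a peak in embryo at all stages were mostly either in every endosperm library or in none. Of the 1950 regions of the arm with a peak in all 3 embryo libraries, 845 (43.3%) were in 0 endosperm libraries, 139 (7.13%) in 1, 124 (6.36%) in 2, 128 (6.56%) in 3 and 714 (36.6%) in 4. Over the rest of the 12 chromosomes the shares were 33.5%, 5.92%, 5.50%, 8.75% and 46.4%. The intermediate classes were small on the arm as elsewhere, and with the full lists the balance between the extremes was turned round. With lists of equal length it was not, with 482 regions of the arm in 0 endosperm libraries and 520 in 4. Over the 12 chromosomes these numbers were then 7347 and 12535. By stage, 43.5%, 48.6%, 47.2% and 46.7% of these 1950 regions had a peak in endosperm at 2, 3, 6 and 9 DAP.

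**Figure D5:**
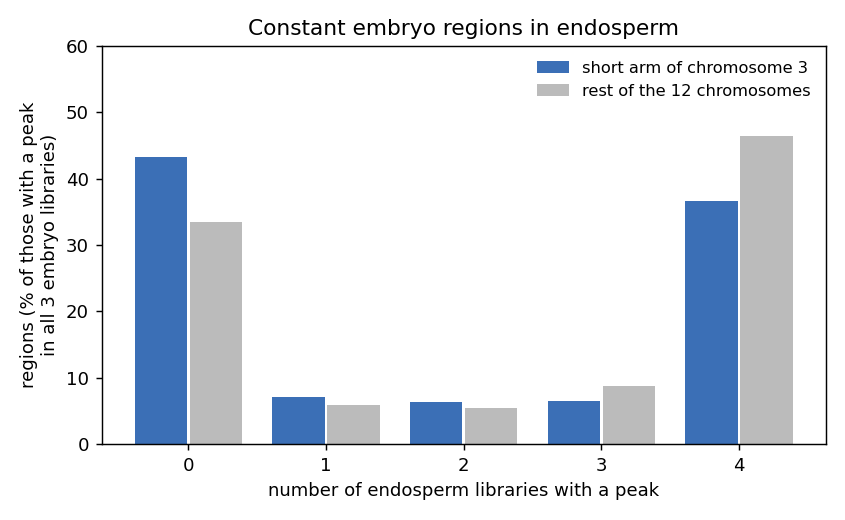
Share, in percent, of the regions with a peak in all 3 embryo libraries that had a peak in 0, 1, 2, 3 or 4 endosperm libraries, for the short arm of chromosome 3 (blue, 1950 regions) and the rest of the 12 chromosomes (grey, 38416 regions). The blue bar is the taller at 0 (43.3% against 33.5%) and the grey bar at 4 (36.6% on the arm against 46.4%).

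Seen from endosperm, the arm was near the rest. Of 857 regions with a peak in all 4 endosperm libraries, 714 (83.3%) had a peak in all 3 embryo libraries and 40 (4.67%) in none. Over the rest of the 12 chromosomes these shares were 81.1% and 5.38%.

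High-scoring peaks were looked up singly. Among embryo peaks of the arm with a deposited score of at least 300, where the score is the negative base-10 logarithm of the peak's p-value multiplied by 10, 30.2% (95% exact interval 25.6 to 35.1, n = 381), 38.2% (33.4 to 43.1, n = 406) and 40.7% (35.9 to 45.5, n = 423) had no overlapping endosperm peak at 3, 6 and 9 DAP. Over the rest of the 12 chromosomes they were 22.3%, 27.6% and 32.6%. Among endosperm peaks of the arm with such a score, 0 of 237 at 3 DAP lacked an overlapping embryo peak, an exact interval of 0% to 1.54%. At 6 DAP it was 2 of 282 (0.709%, 0.0860 to 2.54), and at 9 DAP 4 of 208 (1.92%, 0.526 to 4.85). Elsewhere the shares for endosperm were 0.906%, 2.43% and 3.17% at 3, 6 and 9 DAP, so such peaks were few there too, and at each stage the share of the rest lay inside the interval of the arm. The intervals cover counting error only.

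Embryo-only regions were not faint in comparison with shared ones of the same libraries. Their median fold enrichment was 7.46 to 7.76 in the 3 embryo libraries, against 6.73 to 7.14 for embryo peaks in shared regions of the arm. Their score was lower, with medians of 129 to 157 against 185 to 194, as was their RPM, with a median of 7.58 against 14.5. Per kb of the joined region the medians were 9.02 RPM in embryo-only and 8.49 RPM in shared regions. A joined region of the shared class can hold bases called only in endosperm, which lower its embryo RPM per kb. The order per kb thus does not show the part of length in the lower RPM of embryo-only regions, which were also shorter. RPM per kb of called embryo peak was not compared between these classes. The same order of fold enrichment held over the rest of the 12 chromosomes, with 7.14 to 7.62 for embryo-only regions and 6.46 to 6.87 for embryo peaks in shared regions.

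The embryo-only region with the highest mean RPM lay from 17220330 to 17225320 (4991 bp), close to the proximal limit of the arm. It held 652, 326 and 506 tags in embryo at 3, 6 and 9 DAP, or 80.9, 39.6 and 60.1 RPM, so its level at 3 DAP was about 2 times that at 6 DAP. It was also the longest embryo-only region of the arm, with a low fold enrichment of 3.18 to 3.65. Its first rank depended on weak peaks: its mean was 20.02 RPM when peaks needed a score of at least 100 and with lists of equal length, and no peak was left at a fold enrichment of at least 5.

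The next 4 were steadier over stages, and each kept at least 23.6 RPM under these filters. From 1159130 to 1161933 (2804 bp) there were 195, 211 and 230 tags at 3, 6 and 9 DAP, with 25.7 ± 1.56 RPM (SD, n = 3 stages) and a fold enrichment of 6.55 to 8.31. From 17267452 to 17269489 (2038 bp) there were 195, 203 and 225 tags, with 25.2 ± 1.34 RPM and the highest fold enrichment of the 5, 9.80 to 12.4. From 12032505 to 12034409 (1905 bp) there were 205, 200 and 214 tags and 25.04 ± 0.646 RPM. From 3622443 to 3624834 (2392 bp) there were 185, 189 and 241 tags and 24.8 ± 3.27 RPM. No endosperm library had a listed peak in any of these 5 regions.

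The longest unbroken run of embryo-only regions held 9 regions from 4783313 to 4824014, inside the window of the highest ratio. They spanned 40.7 kb, covered 7.12 kb of it and were 565 to 1040 bp long. Their summed tags were 544, 578 and 619 in embryo at 3, 6 and 9 DAP, or 67.5, 70.2 and 73.5 RPM. A run of 7 lay from 4350565 to 4377967, and a run of 6 from 1145584 to 1170899 included the region at 1159130. Of the 567 runs in all, 392 were a single region, and runs of at least 3 held 227 (26.9%) of the 845 embryo-only regions.

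Endosperm-only regions had a median of 8.89 RPM in endosperm, and embryo-only regions, which were shorter, had a median of 7.58 RPM in embryo. Per kb of the joined region the order was reversed, with medians of 7.73 RPM in endosperm-only and 9.02 RPM in embryo-only regions. Of the 5 endosperm-only regions with the highest mean RPM, the first lay from 11389981 to 11392395 (2415 bp) and had 180, 148, 152 and 149 tags in endosperm at 2, 3, 6 and 9 DAP, or 26.3, 20.4, 20.8 and 19.96 RPM. From 11964301 to 11968004 (3704 bp) there were 100, 136, 207 and 191 tags, with 21.8 ± 6.27 RPM (SD, n = 4 stages). From 12881763 to 12883972 there were 20.4 ± 4.36 RPM, from 2971342 to 2973221 there were 17.7 ± 1.21 RPM, and from 7392698 to 7395235 there were 15.9 ± 5.76 RPM. The region at 2971342 had the steadiest level of the 5 and the highest fold enrichment, 6.56 to 8.37. No embryo library had a listed peak in any of them. The other 4 rested partly on weak peaks, with 6.58, 11.1, 12.0 and 12.1 RPM in the order given at a score of at least 100, and 5.20, 11.8, 8.41 and 9.48 RPM at a fold enrichment of at least 5.

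Shared regions also differed in tag level between the tissues. The RPM of a region sums the tags of the peaks called in it, so it moves with how much of the region each list covers as well as with the tags per kb. Over the 714 shared regions of the arm, the median log2 ratio of mean embryo to mean endosperm RPM was -0.11, against -0.29 over the 17809 shared regions of the rest of the 12 chromosomes. Every embryo library was above every endosperm library in 169 of them (23.7%, against 16.4% of all shared regions), and the reverse held in 189 (26.5%, against 33.4%). With each library centred on its median over all shared regions, the numbers were 209 (29.3%) and 127 (17.8%) and the median was 0.05. In shared regions of the rest the centred shares were 20.7% and 24.5%. Which direction was the more frequent on the arm thus depended on the scaling. Of the 169 regions, 163 had more covered length in embryo and 151 more RPM per kb of peak, with every embryo library above in RPM per kb in 99. Of the 189, 12 had more covered length and 9 more RPM per kb in embryo, with every endosperm library above in RPM per kb in 104. Likewise, among 2867 regions of the rest with every embryo library above, 2702 had more covered length and 2627 more RPM per kb in embryo. Every embryo library was above in RPM per kb in 1671 of them. Among 5996 regions of the rest with every endosperm library above, the numbers were 333 and 175. Every endosperm library was above in RPM per kb in 3529 of those. On the arm, at least 2-fold differences without overlap were found in 65 regions (9.10%, against 5.23% of all shared regions) with more in embryo. In 42 (5.88%, against 8.49%) there was at least 2-fold more in endosperm.

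The shared region with the largest excess in embryo lay from 10594165 to 10598025 (3861 bp). It had 68.5, 67.2 and 71.9 RPM in embryo at 3, 6 and 9 DAP, and 16.4, 11.1, 11.2 and 11.7 RPM in endosperm at 2, 3, 6 and 9 DAP. The embryo libraries lay close together and above endosperm, 5.49-fold on average. Peaks covered 3717 to 3844 bp of it in embryo and 1490 to 2313 bp in endosperm, and per kb of peak there were 17.5 to 19.4 RPM in embryo and 7.09 to 7.48 RPM in endosperm. The deposited fold enrichment was nearer, 7.37 to 8.11 in embryo and 5.06 to 7.11 in endosperm. The log2 ratio of 2.46 was 5.39 at a score of at least 100, where fewer endosperm peaks were counted. From 12916077 to 12917422 the means were 25.6 ± 1.39 RPM in embryo and 5.89 ± 1.35 in endosperm, and from 12510581 to 12513113 they were 27.6 ± 2.52 and 6.75 ± 1.06.

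In the other direction, the region from 12972308 to 12976014 (3707 bp) had 8.56, 8.99 and 7.36 RPM in embryo at 3, 6 and 9 DAP, and 29.7, 44.3, 44.6 and 38.7 RPM in endosperm at 2, 3, 6 and 9 DAP. The log2 ratio was -2.24. Peaks covered 885 to 1029 bp of it in embryo and 3396 to 3646 bp in endosperm. Per kb of peak the tissues overlapped, with 7.68 to 9.67 RPM in embryo and 8.75 to 12.4 RPM in endosperm, and the deposited fold enrichment was higher in embryo, 5.65 to 8.75, than in endosperm, 3.72 to 4.37. The tissues were thus fully apart in called length. In RPM per kb endosperm was higher on average, 11.1 against 8.70, and only its library at 2 DAP lay inside the embryo range. From 7204916 to 7208780 the log2 ratio was also -2.24, with 7.36 ± 0.697 RPM in embryo and 34.8 ± 14.3 in endosperm. From 2034295 to 2038298 it was -1.78, and endosperm ranged widely, with 57.9, 14.3, 35.2 and 13.4 RPM at 2, 3, 6 and 9 DAP.

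Within a tissue the arm was stable over the stages sampled. Of embryo peaks of the arm, 91.2% (95% exact interval 90.0 to 92.3) at 3 DAP overlapped a peak at 6 DAP, and 89.6% (88.3 to 90.7) at 6 DAP overlapped one at 9 DAP. Over the rest of the 12 chromosomes these shares were 88.1% and 87.7%. Of endosperm peaks at 2 DAP, 80.1% (77.8 to 82.3) overlapped a peak at 3 DAP. The share was 84.2% (82.2 to 86.2) for peaks at 3 DAP looked up at 6 DAP and 83.0% (80.9 to 84.9) for those at 6 DAP looked up at 9 DAP. Over the rest it was 80.5%, 84.3% and 82.6% for these 3 steps. With 1 library per stage, the difference between the arm and the rest has no replicate check.

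Regions present at every stage made up 1950 of 2789 embryo regions of the arm (69.9%, over 3 stages) and 857 of 1681 endosperm regions (51.0%, over 4 stages). The rest of the 12 chromosomes had 67.1% in embryo and 50.2% in endosperm. In embryo, 410 regions (14.7%) appeared at a later stage and stayed, and 196 (7.03%) were present first and lost for good. In endosperm 248 (14.8%) were gained and 167 (9.93%) lost in this way. Elsewhere on the 12 chromosomes the gained share was 14.6% in embryo and 15.3% in endosperm, and the lost share 8.62% and 10.2%, near the values of the arm. Gains outnumbered losses in both tissues, and depth was higher at each later stage in both as well; its part in the gains was not tested.

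Covered length was higher at 9 than at 3 DAP in 29 of the 32 windows of the arm in embryo (90.6%), against 68.8% of all 500 kb windows. In endosperm it was higher in 26 (81.2%), against 73% of all windows. RPM was higher at 9 than at 3 DAP in 25 windows of the arm in embryo (78.1%, against 60% of all windows) and in 12 in endosperm (37.5%, against 29.2%). The ratio of the tissues had no common trend on the arm. It was higher at 9 than at 3 DAP in 19 windows (against 44.7% of all windows with a ratio), higher at each later stage in 4 (12.5%, against 14.5%) and lower at each later stage in 6 (18.8%, against 23.8%). With 1 library per stage these counts have no replicate check.

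Libraries of a tissue resembled each other more than those of the other tissue on the arm. The Jaccard index of 2 lists (bases inside peaks of both, over bases inside peaks of either) was 0.687 to 0.710 between embryo libraries and 0.563 to 0.679 between endosperm libraries. Between a library of embryo and one of endosperm it was 0.318 to 0.437. At matched stages it was 0.437, 0.390 and 0.353 at 3, 6 and 9 DAP. Endosperm at 2 DAP was nearest to endosperm at 6 DAP, with 0.645, and had the lowest index with embryo at 9 DAP, 0.318.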

How the data were processed

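MeDIP-seq peak lists of 7 ZH-11 libraries were used. Per the file headers, the authors ran MACS 1.4.2 on each library with no control. Its settings were a p-value limit of 1e-05, fragments of 200 bp, tags of 41 bp, 1 tag per position, a 10 kb local background and a genome size of 360 Mb. Bowtie2 is named with no role in the submitters' processing notes. The deposited tag count of a peak is in raw reads. The deposited score is the negative logarithm described in the text, and the fold enrichment is the authors' ratio of summit tags to local background. Peak length is in bp per the file headers.

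Peaks were assigned to the arm and to 500 kb windows by midpoint, and covered length was the summed length of peaks. RPM is tags in peaks divided by the filtered tags of the header, multiplied by 1000000. Regions were peaks of all 7 lists merged where they touched or overlapped. Means ± SD run over stages of a tissue, which stood in for replicates. Exact Clopper-Pearson intervals at 95% cover counting error only, since they treat the peaks of 1 library as independent and each stage was 1 library. The arm, its windows and the comparisons were chosen with earlier results of these data known, and no p-value was computed. Named were the 5 windows with the highest and 3 with the lowest mean ratio, the 3 with the highest covered length, the 5 embryo-only and 5 endosperm-only regions with the highest mean RPM, the 3 shared regions at each end of the log2 ratio among those without overlap between tissues, and the longest run of embryo-only regions; the runs of 7 and 6 were named after their values were seen. Region merging, overlap and window sums were tested on simulated data. Covered length and RPM per kb inside shared regions were added after their RPM was seen. Alternatives were peak score, fold enrichment, equal list lengths, cutting peaks at borders, window size, overlap and leaving out each library. Python 3.11.15, pandas 2.3.3, numpy 2.4.6 and scipy 1.17.1 were used. No gene names or sequences were used, since the build of the files is not named.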

Additional observations from a re-analysis of the deposited data

Results flagged for a closer look

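In groups of 4 endosperm libraries, 1 library stood far from the others in 4 of the 28 measures and named places looked at. The limit used flags about 1 in 20 groups of replicates by chance. Here the 4 libraries were different stages and all 28 groups shared them, so the number of flags cannot be set against chance. The number of peaks on the arm was lowest at 2 DAP, 1222, against 1339 to 1350 at the later stages. Over the rest of the 12 chromosomes it was also lowest at 2 DAP, 31716, against 34742 to 35469. The RPM of the endosperm-only region from 11389981 to 11392395 was highest at 2 DAP, 26.3, against 19.96 to 20.8. The RPM of the shared region from 10594165 to 10598025 was highest in endosperm at 2 DAP, 16.4, against 11.1 to 11.7, and that of the shared region from 12510581 to 12513113 likewise, 8.34 against 6.16 to 6.30. All 4 came from endosperm at 2 DAP, the shallowest library and the one whose peaks had the longest median.

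From 3 to 9 DAP, 3 measures of the arm moved in opposite directions in the tissues. With 1 library a stage, this difference was not tested. Tags in peaks changed by 1849 RPM in embryo and by -619.6 RPM in endosperm. The median score changed by 2.83 in embryo and by -8.70 in endosperm. The share of peaks of at least 3 kb changed by -0.376 percentage points in embryo and by 0.448 in endosperm. Over the rest of the 12 chromosomes, tags went from 569044 to 570306 RPM in embryo and from 554436 to 522613 RPM in endosperm. The share of long peaks there went from 2.11% to 1.36% and from 5.50% to 6.49%. Both measures thus moved in opposite directions outside the arm too. The median score there fell in both tissues, from 127.3 to 126.3 in embryo and from 128.8 to 117.4 in endosperm.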

How the results depend on the processing

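The minimum of 4 RPM was chosen after seeing the data; under it, with bases cut at borders and with 200 bp of overlap, the results kept their direction and stayed within their spread. With equal numbers of highest-scoring peaks (32986 per library) the embryo excess of the arm shrank but held, with mean ratios of 1.18 for covered length, 1.34 for peak number and 1.18 for RPM, while the rest of the 12 chromosomes turned to 0.853, so the ratio relative to the rest became 1.39 in place of 1.32. There were then 482 embryo-only and 125 endosperm-only regions, 19 windows with every embryo library above every endosperm library and 3 with the reverse, and kept shares of 86.4% and 85.9% in embryo and 77.3% from 2 to 3 DAP in endosperm. The 3 windows of low ratio turned below 1, from 13000001 (0.838), 16500001 (0.713) and 13500001 (0.768). At a score of 100 or more the ratios were 1.52 for covered length and 1.96 for peak number, shared regions numbered 403, kept shares were 87.9% and 87.1% in embryo and 76.7% from 2 to 3 DAP and 77.8% from 6 to 9 DAP in endosperm, and the windows from 13000001 (0.950) and 16500001 (0.941) turned below 1. Keeping peaks with a fold enrichment of at least 5, the ratios were 1.65 for covered length, 1.61 for RPM and 1.21 relative to the rest, shared regions numbered 468, and kept shares were 88.8% and 85.9% in embryo and 76.4%, 81.6% and 74.2% in endosperm. These filters shorten the lists; the cause was otherwise not tested. With 1 Mb windows 16 of 16 had every embryo library above every endosperm library, and with 250 kb windows 57 of 65, with 1 the other way.

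For the ratios, leaving out a library dropped both tissues of its stage, and endosperm at 2 DAP did not enter them. Leaving out each shared stage gave ratios of 1.54 to 1.55 for covered length and 1.83 to 1.91 for peak number. It gave 1.395 to 1.47 for RPM and 1.31 to 1.34 relative to the rest. Leaving out each single library gave 31 to 32 separated windows, 870 to 1005 embryo-only, 725 to 786 shared and 44 to 66 endosperm-only regions. The last count was 66 without endosperm at 2 DAP and 65 without endosperm at 3 DAP. No paired analysis was possible because no result comes from a test; the ratios already set embryo against endosperm of the same stage.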
